A study of Arabidopsis thaliana with 47 samples.

Results

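Arabidopsis thaliana seedlings grown on lincomycin were compared 24 h and 4 h after a shift from dim to brighter light, a step that covers what changed after the acute response while plastid translation was blocked. The groups were chosen by treatment and time alone, as 4 arrays at 24 h against 4 arrays at 4 h, 8 of the 47 arrays of the study. All seedlings were of the Col-0 accession, labelled as 7 days old, and grown on medium with 2% sucrose. They spent 6 days in a mixture of red and blue light so dim that its fluence rate was 0.5 µmol m-2 s-1, and this was then raised to 60. Seedlings of the main groups had 0.5 mM lincomycin in the medium throughout. Seedlings without lincomycin, sampled at 4 h (4 arrays) and at 24 h (3 of 4 arrays), had the same growth and light and serve as the comparison. Levels before the shift come from 4 further arrays with lincomycin at 0 h, those numbered 5 to 8. RNA of 50 to 100 pooled whole seedlings went on each Affymetrix ATH1 array, and the replicates were grown separately according to the submitters. The later group was also 20 h older and was collected at another point of the daily cycle, and neither can be told apart from the longer time in brighter light.

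Lincomycin stops protein synthesis on the bacterial-type ribosomes of plastids, so that seedlings fail to build functional chloroplasts and do not turn green. Plastids in this state send a retrograde signal that lowers the transcripts of many nuclear genes for photosynthesis. A shift to brighter light is known to induce transcripts for photoprotection, flavonoids and chaperones within hours, and prolonged light in green seedlings then builds up the photosynthetic apparatus and supplies sugar.

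Values are signals on a linear scale on which each array had been set to the same trimmed mean. Tests used log2(signal + 1) in a limma fit of 23 arrays, a difference is always 24 h minus 4 h, its error is the standard error (SE) of the fit, and a gene is said to rise or fall only where its adjusted p lay under 0.05. Within a group, rank correlations between arrays ran from 0.977 to 0.985. Median signals were 211 to 217 at 4 h and 197 to 206 at 24 h, and the log2 signal of the spike-in control Dap was 8.33 to 8.45 at 4 h and 8.08 to 8.26 at 24 h, so that both separated the groups. The log2 ratio of 3' to 5' signal of the actin control was 4.55 to 5.13 at 4 h and 4.02 to 4.73 at 24 h, a measure of RNA integrity. The part of these measures in the results was not tested. Array 4 at 24 h without lincomycin was left out because its median rank correlation with the other arrays was 0.619, against 0.915 to 0.943 for the 23 arrays kept. Keeping it widens the spread shared by all groups and lowers the calls of the step with lincomycin from 3610 to 1404. Of the 148 genes named below as called in the step, 53 lose the call if it is kept.

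Of 22746 probe sets tested, 3610 (15.9%) differed between 24 h and 4 h with lincomycin. Of these 1548 (6.81%) rose and 2062 (9.07%) fell, with a median absolute change of 0.59 among those called. Changes of at least 2-fold were called for 220 probe sets (0.967%) that rose and 368 (1.62%) that fell, and in 193 and 341 of these the 4 arrays of one time did not overlap the 4 of the other. The arrays did not overlap for 4852 probe sets (21.3%) in all, called or not. In whole seedlings, fewer cells of a type and less RNA per cell cannot be told apart. Set against the 0 h arrays, 5026 probe sets (22.1%) differed at 4 h and 7184 (31.6%) at 24 h. Without lincomycin 11.2% of probe sets rose and 17.9% fell between 4 and 24 h. The difference between the steps was positive for 10.6% and negative for 8.34%. Counts of list members below are to be read beside these shares and the 6.81% and 9.07% above.

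Heat shock genes were among the largest falls. HSP101 (AT1G74310), a chaperone that dissolves protein aggregates, gave signals of 986, 811, 1166 and 1071 at 4 h and of 100.2, 111, 73.0 and 119 at 24 h. The gene fell by 3.32 ± 0.18 on the log2 scale (adjusted p = 1.13e-09), which is 9.99-fold. For the 10 largest falls and the 10 largest rises, arrays that do not overlap were a condition of the choice. Its mean log2 level had been 7.31 at 0 h and 9.97 at 4 h, and at 6.65 at 24 h it was lower than before the shift. HSP90.1 (AT5G52640), a heat-inducible cytosolic chaperone, gave 4171, 4307, 4485 and 3907 at 4 h and 884, 707, 922 and 827 at 24 h, a fall of 5.06-fold. Unlike HSP101, its 24 h level of 9.70 remained above its 0 h level of 9.27.

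HSFA2 (AT2G26150), a transcription factor of the heat response, had signals of 209, 210.1, 284 and 268 at 4 h. At 24 h its signals of 34.0, 17.9, 59.3 and 16.7 averaged below the first quartile of the arrays, which serves here as the floor of dim signals, so that the fall was at least 4.86-fold. The small heat shock proteins HSP17.6A, HSP17.6II and HSP17.4 fell by 2.97 ± 0.45, 2.23 ± 0.34 and 2.19 ± 0.26. Of 18 genes for heat shock proteins and chaperones, 10 fell and none rose, with a median of -0.86, or -0.44 where 32 in place of 1 was added before the logarithm. Without lincomycin 12 of the 18 fell and 3 rose. The plastid chaperone CPHSC70-2 fell by 1.21 ± 0.10, whereas the plastid chaperonin CPN60B differed by 0.15 ± 0.11 with overlapping arrays (adjusted p = 0.457).

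**Figure D1:**
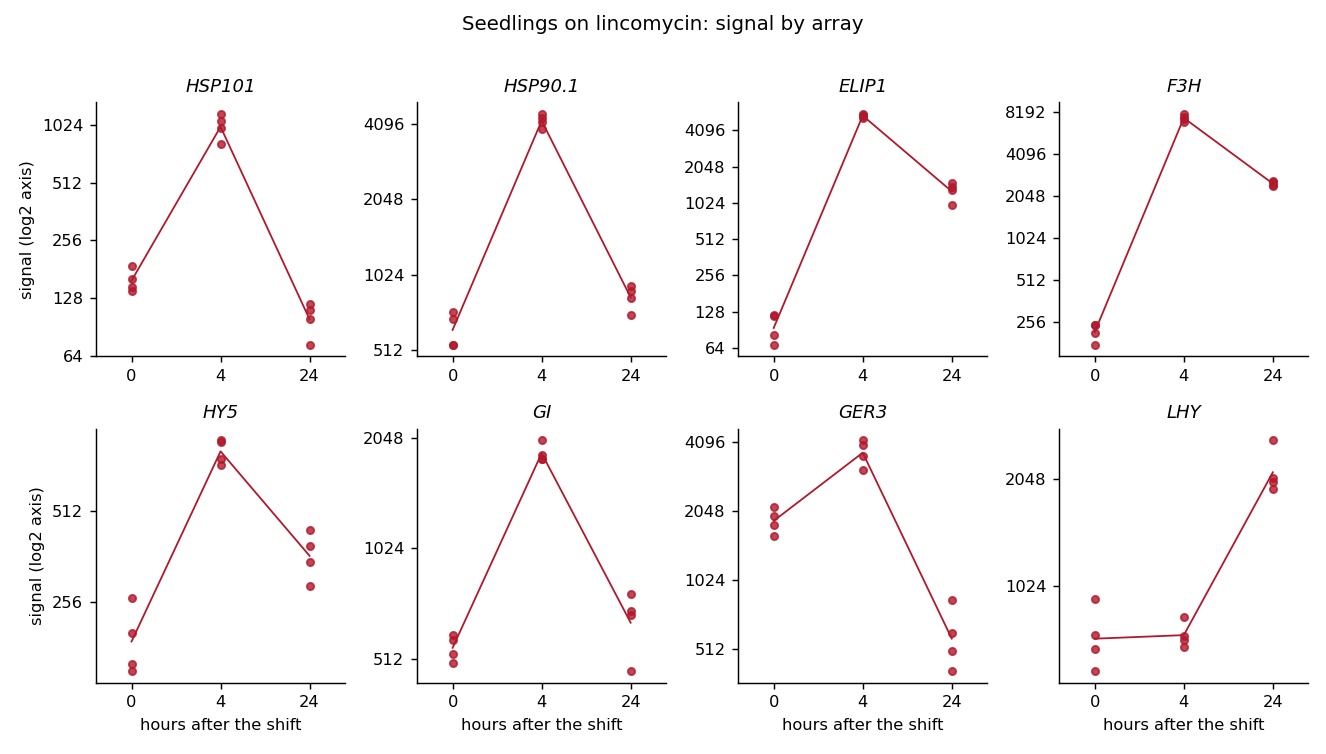
Signal of 8 genes on each array of seedlings with lincomycin at 0, 4 and 24 h after the shift (log2 axis, 4 arrays a time, lines join the means of the log values, times not drawn to scale). HSP101 went from between 811 and 1166 at 4 h to between 73.0 and 119 at 24 h, ELIP1 and F3H stayed well above their 0 h signals, GER3 fell below them and LHY rose only after 4 h.

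Other genes among the 10 largest falls serve the cell wall, the cuticle and growth. GER3 (AT5G20630), a germin-like protein, gave 3567, 3985, 4166 and 3078 at 4 h and 836, 502, 408 and 601 at 24 h. This fall of 2.70 ± 0.19 took it below its 0 h level (log2 10.85 at 0 h, 9.15 at 24 h), whereas without lincomycin it hardly moved between 4 and 24 h (-0.03 ± 0.20). AIF1, an atypical bHLH protein known from brassinosteroid signalling, fell by 2.52 ± 0.18. CYP96A15, an alkane hydroxylase of wax synthesis, dropped at least 4.76-fold to a level at the floor, and WSD1, a wax ester synthase, fell by 2.32 ± 0.25. CER4 (-0.89 ± 0.12), KCS6 (-0.60 ± 0.11) and CER3 (-0.58 ± 0.08), which also act in wax synthesis, were the 3 of 8 cuticle genes that fell. AT2G46420 fell by 2.29 ± 0.14 and had been raised 1.94 at 1 h.

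Several photoprotective genes fell, while part of the antioxidant set rose. ELIP1 (AT3G22840), an early light-induced protein of the thylakoid, gave 5440, 5612, 5538 and 5145 at 4 h and 1490, 1301, 1400 and 980 at 24 h, a 4.25-fold fall. With 67.9 to 119 at 0 h, the 24 h signals still lay far above the starting level. ELIP2 fell by 1.298 ± 0.24, and VTC2, the enzyme that commits GDP-L-galactose to ascorbate, fell by 1.05 ± 0.09. The transcription factor ZAT10 fell by 0.92 ± 0.13. In contrast FSD1, a plastid iron superoxide dismutase, rose by 1.34 ± 0.20, the plastid copper and zinc enzyme CSD2 by 0.98 ± 0.08, and the catalase CAT1 by 1.04 ± 0.10. CSD2 gave 5047, 5040, 4807 and 4754 at 4 h and 9610, 9280, 10134 and 9852 at 24 h, without any overlap. In all, 6 of 23 genes of photoprotection and antioxidants rose and 8 fell.

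Flavonoid genes declined from a high level at 4 h without returning to the start. F3H (AT3G51240), flavanone 3-hydroxylase, gave 7614, 6899, 7329 and 7948 at 4 h and 2422, 2644, 2447 and 2571 at 24 h, a 2.95-fold fall. The signals of F3H at 0 h had been 176 to 246. Its regulators MYB12 and MYB111 fell by 1.21 ± 0.16 and 1.34 ± 0.28, and the glucosyltransferase UGT78D2 by 1.195 ± 0.08. Of 26 flavonoid and anthocyanin genes 13 fell and 2 rose, with a median of -0.71, and 18 of the 26 were called higher at 24 h than at 0 h (13.6% of all probe sets were). CHS, chalcone synthase at the entry of the pathway, was not called at -0.27 ± 0.25 (adjusted p = 0.539), although every 24 h array lay below every 4 h array. Among the risers was MYBL2, a repressor of anthocyanin synthesis, whose signals went from 734, 917, 756 and 691 to 3004, 2574, 2056 and 2397 (1.69 ± 0.11).

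Probe sets that respond within 1 h can be read on arrays that the step does not use. On 11 early arrays with lincomycin (0 h numbers 1 to 4, 0.5 h and 1 h), 149 probe sets (0.655%) were called at 1 h against 0 h, 97 of them raised (0.426%) and 52 lowered (0.229%). At 0.5 h only 4 (0.0176%) were called, 3 raised (0.0132%) and 1 lowered (0.0044%), and none of the 4 was called in the step. Of the 97 raised at 1 h, 48 (49.5%) fell between 4 and 24 h and 10 (10.3%) rose, beside 9.07% and 6.81% of all probe sets. Of the 52 lowered at 1 h, 7 fell and 6 rose. HY5 (AT5G11260), a bZIP factor central to light responses, was raised 3.13 on the log2 scale at 1 h, gave 726, 864, 759 and 874 at 4 h, and fell to 443, 391, 347 and 289 at 24 h. Its homologue HYH, raised 2.64 at 1 h, fell by 0.49 ± 0.09.

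Among 752 genes, those of the lists together with those named by rule, 29 were raised at 1 h, of which 18 fell in the step and 2 rose. The genes named by rule were picked by their step or the difference between the steps, so these counts follow in part from the choice. CGA1, a GATA factor of chloroplast development, was raised 2.80 at 1 h and fell by 0.67 ± 0.15. RUP1, a repressor of UV-B signalling, fell by 0.62 ± 0.14 and BBX22 by 0.46 ± 0.10. The exceptions that went on rising were BBX25 (0.55 ± 0.08), a B-box protein known to bind HY5, and ZEP (0.43 ± 0.09), zeaxanthin epoxidase. On the same log2 scale SIG5, a nuclear-encoded sigma factor of the plastid RNA polymerase, was raised 2.64 at 1 h and differed by only 0.01 ± 0.13 in the step. IAA29, an auxin-responsive gene typical of shade growth that was lowered 3.05 at 1 h, rose by 1.00 ± 0.18, though its 24 h level of 6.79 stayed below the 8.68 of 0 h.

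The best-known genes of sugar starvation, lowered at 4 h, came back by 24 h to their level in dim light or above. DIN1 (AT4G35770), also known as SEN1 and induced by darkness and sugar depletion, gave 5018 to 6941 at 0 h, dropped to 1031, 1348, 922 and 1233 at 4 h, and came back to 8511, 7029, 9071 and 5243 at 24 h. The rise was 2.70 ± 0.18 (6.51-fold, adjusted p = 1.16e-08), and the 24 h level of 12.83 did not differ by test from the 12.61 of 0 h. DIN6 (AT3G47340), the asparagine synthetase ASN1, gave 1473, 1598, 1256 and 1478 at 4 h and 8496, 6356, 7235 and 4789 at 24 h, a rise of 2.18 ± 0.20. Without lincomycin the same genes kept falling, DIN1 by 1.57 ± 0.19 and DIN6 by 2.00 ± 0.21. The difference between the steps with and without lincomycin was 4.27 ± 0.26 for DIN1 and 4.19 ± 0.29 for DIN6.

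Of 14 genes of sugar starvation and darkness, 7 rose and none fell with lincomycin, while none rose and 11 fell without it, and for 11 the difference between the steps was called positive. DIN10, a raffinose synthase-like enzyme, rose by 1.15 ± 0.12, and the trehalose phosphate synthase homologues TPS10, TPS9, TPS8 and TPS11 rose by 0.34 to 0.63. DYL1, dormancy-associated, behaved otherwise: it had fallen from 12.11 to 10.43 by 4 h and stood at 10.27 at 24 h, a difference of -0.16 ± 0.14. The calls of TPS11 and TPS8 were lost when single arrays were left out (adjusted p up to 0.132 without array 1 at 4 h for TPS11, and up to 0.0775 for TPS8). KIN10, the catalytic subunit of the energy sensor kinase SnRK1, differed by 0.29 ± 0.11 (adjusted p = 0.102). STP1, a sugar-repressed hexose transporter, rose by 0.68 ± 0.16 with lincomycin, and fell by 0.99 ± 0.18 without it.

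**Figure D2:**
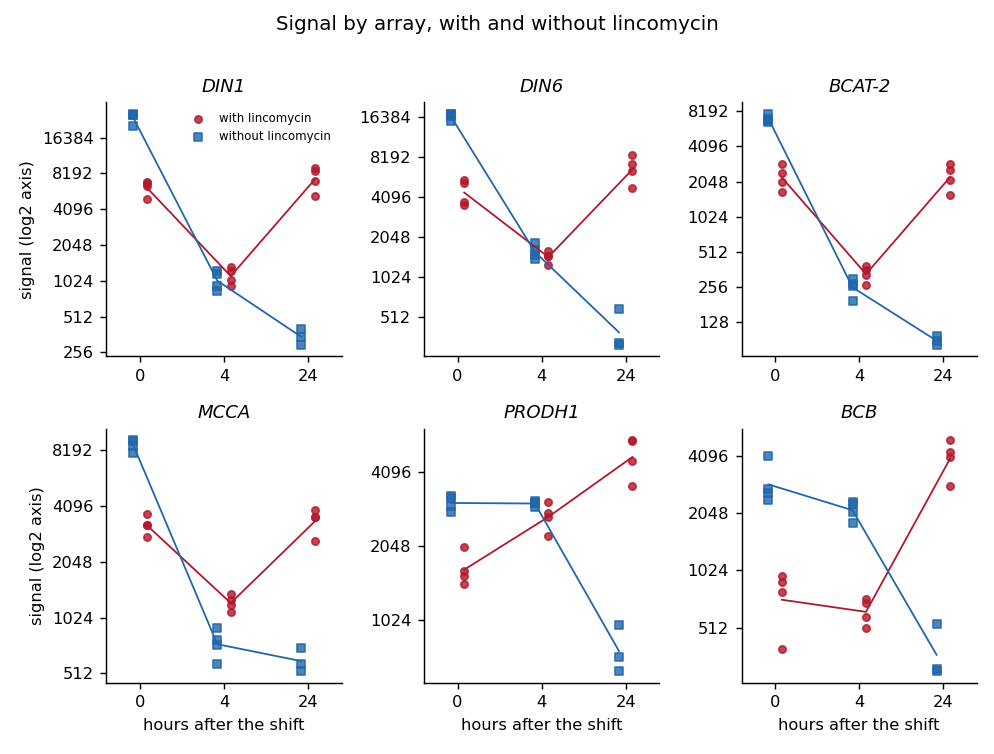
Signal of 6 genes on each array at 0, 4 and 24 h (log2 axis, circles with and squares without lincomycin, lines join the means of the log values, times not drawn to scale, 3 arrays at 24 h without lincomycin and 4 elsewhere). DIN1, DIN6, BCAT-2 and MCCA came back to their 0 h level or above with lincomycin and stayed down or fell further without it.

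Breakdown of branched-chain amino acids, which feeds respiration when sugar is short, rose with the starvation genes. BCAT-2 (AT1G10070), a branched-chain aminotransferase, gave 388, 323, 264 and 358 at 4 h and 2132, 2555, 2893 and 1582 at 24 h. It rose 6.76-fold (2.76 ± 0.19) to 11.13, with 11.12 at 0 h. MCCA (AT1G03090), a subunit of methylcrotonyl-CoA carboxylase, gave 1190, 1274, 1091 and 1364 at 4 h and 3866, 3550, 3554 and 2657 at 24 h (1.46 ± 0.14). DIN4 and BCE2, subunits of the branched-chain keto acid dehydrogenase, rose by 1.51 ± 0.13 and 1.12 ± 0.16, and isovaleryl-CoA dehydrogenase, IVD, by 1.05 ± 0.14.

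Glutamate dehydrogenase GDH1 rose by 1.25 ± 0.16 and its paralogue GDH2 by 0.52 ± 0.10. The electron acceptor of this route in mitochondria, ETFQO, rose by 0.80 ± 0.10. Of 20 measured genes for amino acid breakdown 13 rose and 1 fell, against 4 that rose and 7 that fell without lincomycin, and the difference between the steps was positive for 12 and negative for 1. The gene that fell was ETFA, by 0.25 ± 0.08, an electron-transfer flavoprotein subunit, and 6 of the 8 omissions of an array ended its call (adjusted p up to 0.149). PRODH1, proline dehydrogenase, followed another course: from 10.69 at 0 h it stood at 11.40 at 4 h and rose by a further 0.81 ± 0.15, whereas it fell by 1.99 ± 0.16 without lincomycin. LKR, which starts lysine breakdown, differed by -0.17 ± 0.11 and stayed near its 4 h level. Of 17 autophagy genes only ATG5 (0.49 ± 0.10) was called. Of 16 senescence genes 1 rose and 1 fell (GLN1;1, -0.73 ± 0.10). Among all probe sets 6.81% rose and 9.07% fell, so that neither list stood apart by its counts.

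The largest rises included defence-related and storage proteins. THI2.2 (AT5G36910), a thionin, gave 623, 608, 390 and 636 at 4 h and 5219, 5247, 3806 and 4303 at 24 h. It rose 8.30-fold, and by about as much without lincomycin (3.05 ± 0.21 and 3.37 ± 0.23). BCB (AT5G20230), a blue copper-binding protein, gave 690, 723, 580 and 509 at 4 h and 4928, 4296, 4020 and 2835 at 24 h. Without lincomycin BCB fell from between 1813 and 2333 to between 302 and 534, and its difference between the steps, 5.19 ± 0.38, was the largest positive difference among the genes named by rule.

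PAP85 (AT3G22640), a vicilin-like protein of seed storage, gave 75.6, 74.9, 44.2 and 16.6 at 4 h and 559, 412, 480 and 374 at 24 h, a rise of at least 7.65-fold from a level at the floor. None of 11 other listed seed storage genes was called, and their summed signal ranged widely among replicates, between 304 and 1568 at 4 h and between 357 and 1507 at 24 h. The cruciferin CRA1, for example, gave 601, 268, 22.4 and 33.3 at 4 h and 53.3, 45.7, 357 and 425 at 24 h. CSY5, a citrate synthase, rose by 2.60 ± 0.62 from signals of 33.3 to 56.3, and the protein kinase CIPK20 by 2.37 ± 0.24. AT1G07450 lost its call without array 3 at 4 h (adjusted p = 0.0502). AT1G20120 (2.57 ± 0.44), AT1G17960 (2.52 ± 0.16) and AT1G07450 (2.22 ± 0.58) complete the 10 largest rises.

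Nuclear genes of photosynthesis did not move together with lincomycin. Of 35 genes for the photosystems and electron transport, 12 rose and 5 fell, and the median change was 0.22. Without lincomycin 34 of the 35 rose with a median of 0.81, and the difference between the steps was negative for 26 and positive for none. PSBS (AT1G44575), the photosystem II subunit that triggers heat dissipation, gave 5022, 5300, 5596 and 5582 at 4 h and 2146, 2339, 2249 and 2135 at 24 h with lincomycin. It fell 2.42-fold between 4 and 24 h, and its signals at 0 h had been 459 to 609. Without lincomycin PSBS went from between 10683 and 13113 to between 19099 and 22683, a rise of 0.81 ± 0.13.

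FD1, a leaf ferredoxin, fell by 1.12 ± 0.11, PSBQ2, of the oxygen-evolving complex, by 0.66 ± 0.09, and the plastocyanin PETE1 by 0.65 ± 0.09. Other members of the oxygen-evolving complex rose, PSBO2 by 0.70 ± 0.14 and PSBO1 by 0.60 ± 0.07, as did the photosystem I subunit PSAN by 0.63 ± 0.10. Transcripts for antenna proteins divided in the same way. Of 20 listed genes only 12 were measured, of which 3 rose and 4 fell, while all 12 rose without lincomycin. LHCB3 (AT5G54270) gave 3999, 4908, 4318 and 4121 at 4 h and 2428, 2127, 2068 and 2119 at 24 h (-0.99 ± 0.10). LHCB2.3 rose from 133, 110.0, 99.1 and 123 to 428, 399, 345 and 273 (1.61 ± 0.25), yet at 24 h without lincomycin it gave 12026, 9993 and 11245. LHCB4.3 fell by 0.75 ± 0.15 with and rose by 2.38 ± 0.16 without lincomycin.

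Carbon fixation and photorespiration shared the upward direction more widely. Of 16 Calvin cycle genes 10 rose and none fell, with GAPB (0.86 ± 0.11), GAPA (0.74 ± 0.13) and FBA2 (0.73 ± 0.10) foremost, and all 16 rose without lincomycin. Among 13 photorespiratory genes 8 rose and 1 fell, the plastid glutamine synthetase GS2 (-0.38 ± 0.08). AGT1 (AT2G13360), the serine:glyoxylate aminotransferase of peroxisomes, gave 2921, 2720, 3134 and 3282 at 4 h and 7532, 7557, 7841 and 5988 at 24 h. Its rise of 1.26 ± 0.10 exceeded that without lincomycin (0.30 ± 0.11), with a difference between the steps of 0.96 ± 0.15. GLYK, glycerate kinase, rose by 1.08 ± 0.14, the glycolate transporter PLGG1 by 0.98 ± 0.10 and hydroxypyruvate reductase HPR1 by 0.97 ± 0.14.

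In tetrapyrrole synthesis the protochlorophyllide oxidoreductases fell, PORB by 0.85 ± 0.19 and PORC by 0.58 ± 0.12, as did GUN4, an activator of magnesium chelatase, by 0.56 ± 0.13. CRD1, the cyclase of chlorophyll synthesis, rose by 0.47 ± 0.08 and FLU, a brake on the pathway, by 0.45 ± 0.12. FLU lost its call without array 1 at 4 h (adjusted p = 0.0557). The count was 9 of 30 that rose and 5 that fell, against 24 that rose and none that fell without lincomycin, and 20 of the 30 differed between the steps. In carotenoid synthesis 6 of 18 rose and 1 fell, which was PSY, phytoene synthase, the rate-limiting step (-0.70 ± 0.12). DVR, divinyl reductase, was not called at 0.58 ± 0.21 (adjusted p = 0.0731), although its arrays did not overlap.

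Proteins of the plastid ribosome gave the most uniform rise. Of 30 nuclear genes for them 21 rose and none fell, with a median of 0.41 and a range from -0.04 to 0.66. PRPL15 rose from 3141, 2890, 2879 and 2883 to 4889, 4200, 4911 and 4585, without overlap (0.65 ± 0.08). Their summed signal was 79558 to 81627 at 4 h and 105348 to 108128 at 24 h. Without lincomycin all 30 rose with a median of 1.57, and for all 30 the difference between the steps was negative. Import and protease genes of plastids held 7 of 14 that rose, CLPP5 by 0.60 ± 0.07 and TIC110 by 0.44 ± 0.09, and 2 that fell, FTSH8 by 0.80 ± 0.16 and FTSH5 by 0.39 ± 0.09.

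Few transcripts of the plastid genome itself were called. Only psbA, for the D1 protein of photosystem II, rose among 71 plastid-encoded genes, from 548, 718, 801 and 630 to 1008, 925, 1132 and 1060 (0.62 ± 0.19), and none fell. Its call was lost in 5 of the 8 omissions of an array (adjusted p up to 0.105). The median over the 71 was 0.19, and without lincomycin 14 rose. The reverse transcription used for such arrays favours polyadenylated RNA, which most plastid transcripts lack. For nuclear partners of the plastid RNA polymerase 3 of 17 rose, FLN1 (0.94 ± 0.11), FSD2 (0.91 ± 0.14) and FLN2 (0.69 ± 0.14). Among 28 mitochondrial genes none rose and 2 fell, beside 6.81% and 9.07% of all probe sets. Of 7 regulators of plastid development 2 fell and none rose, CGA1 (-0.67 ± 0.15) and BBX16, for which no size is given because both group means lay under the floor. GLK1 and GLK2, activators of photosynthesis genes, were not called (0.39 ± 0.20 and 0.10 ± 0.11), and at log2 6.72 and 8.22 their 24 h levels lay below the 9.77 and 10.93 without lincomycin.

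**Figure D3:**
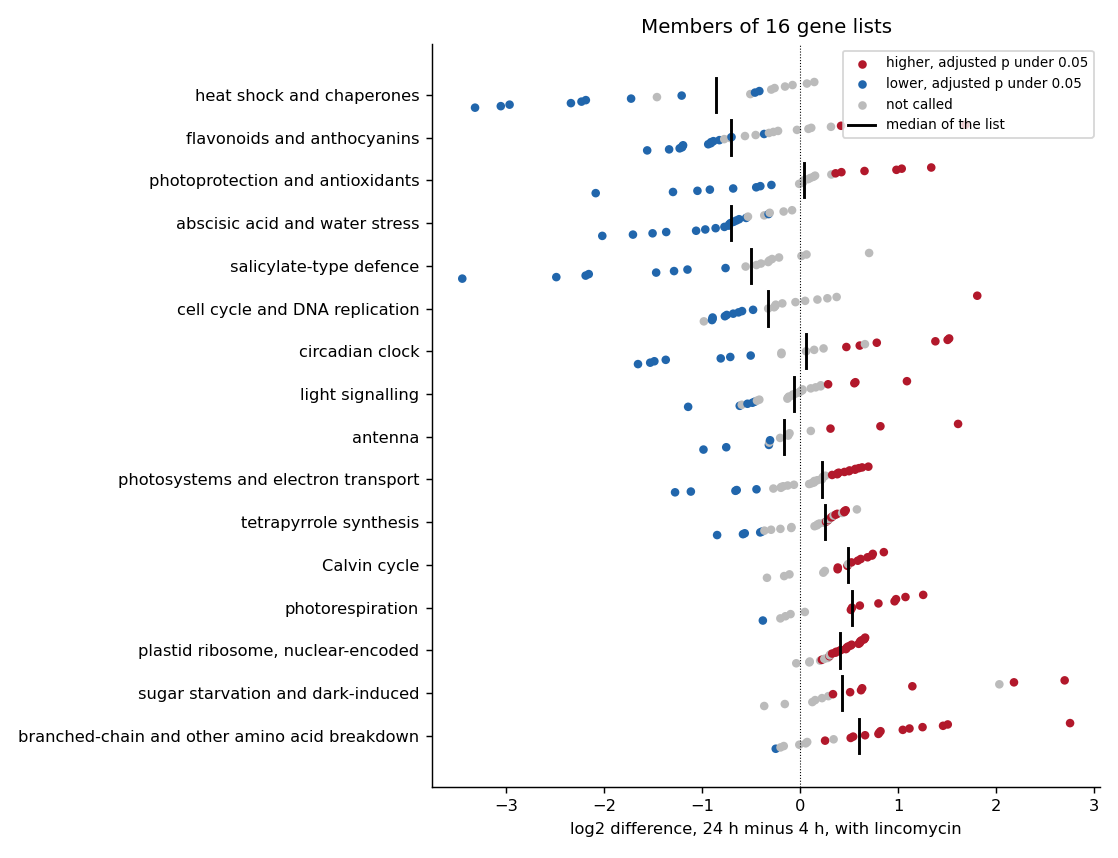
Log2 difference between 24 h and 4 h with lincomycin for each member of 16 gene lists, coloured by direction of the call, with the median of each list as a bar. Heat shock, flavonoid and water stress genes lie mostly to the left, plastid ribosome and amino acid breakdown genes to the right, and clock, photosystem and tetrapyrrole genes to both sides.

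Genes of abscisic acid and water stress fell as a group. Of 21 measured, 16 fell and none rose, with a median of -0.71, and 15 were called lower at 24 h than at 0 h (18.0% of all probe sets were). RD29B (AT5G52300), a classic target of abscisic acid, gave 1241, 580, 1050 and 1012 at 4 h and 260, 282, 264 and 346 at 24 h (-1.71 ± 0.24). RD29A, COR15A and the dehydrins ERD10, LTI30 and COR47 fell by 1.06, 1.37, 0.97, 0.86 and 0.73. ABF3, a transcription factor of this hormone, fell by 0.77 ± 0.11 with lincomycin and rose by 0.34 ± 0.12 without it. Without lincomycin 12 of the 21 fell and 1 rose. NCED3, the key enzyme of abscisic acid synthesis, was called lower, but both group means lay under the floor, so no size is given.

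Of 18 defence genes of the salicylate type 8 fell and none rose with lincomycin, beside 9.07% and 6.81% of all probe sets. Without it 2 fell and 1 rose, beside 17.9% and 11.2% of all probe sets. The difference between the steps was called negative for 7 and positive for 1, beside 8.34% and 10.6%. CBP60G (AT5G26920), a regulator of salicylate synthesis, gave 517, 558, 586 and 505 at 4 h and 170, 226, 201 and 186 at 24 h (-1.47 ± 0.11). Without lincomycin it gave 315 to 416 at 4 h and 360 to 428 at 24 h, and the difference between the steps was -1.63 ± 0.16. ICS1, isochorismate synthase, and the transcription factor WRKY70 fell by 1.15 ± 0.14 and 1.29 ± 0.14. FMO1 (AT1G19250), which makes the immune signal N-hydroxypipecolic acid, gave 127, 126, 138 and 121 at 4 h and 18.9, 3.4, 9.4 and 20.1 at 24 h, at least 2.68-fold lower. PR2 and PR5, late markers of this defence, were not called (-0.56 ± 0.69 and 0.71 ± 0.56). Jasmonate genes counted 3 of 14 that fell, among them JAZ1 (-1.15 ± 0.14), while LOX2 spread from 91.6 to 356 at 24 h and was not called (-0.92 ± 0.40) except without array 4 at 24 h (adjusted p = 0.0441). Unlike the salicylate list, more of the 14 fell without lincomycin, 8, and none rose. The difference between the steps was called positive for 3 of them and negative for none.

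More cell division genes fell than rose with lincomycin, and more rose than fell without it. Of 21 genes 9 fell and 1 rose with lincomycin, against 1 that fell and 11 that rose without, and the difference between the steps was negative for 11 and positive for 1. MCM7 (AT4G02060), a subunit of the replicative helicase, gave 269.5, 311, 283 and 320 at 4 h and 149.9, 181, 150.3 and 154 at 24 h (-0.89 ± 0.16). MCM3, MCM5 and MCM2 fell by 0.90, 0.89 and 0.77, and KNOLLE, the syntaxin of the cell plate, by 0.75 ± 0.11. MCM5 lost its call without array 2 or 3 at 4 h or array 4 at 24 h (adjusted p up to 0.0521). The exception was CYCB1;1 (AT4G37490), a B-type cyclin also induced by DNA damage, with 232, 222, 181 and 176 at 4 h and 807, 729, 639 and 672 at 24 h. It rose 3.51-fold (1.81 ± 0.18), above its 0 h signals of 273 to 399. CYCB1;4, another B-type cyclin, was not called at -0.98 ± 0.47, with array 3 at 24 h at 10.3 and the others at 80.1 to 116.

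Ribosome biogenesis stayed level with lincomycin where it dropped without it. Among 14 genes 1 rose (BRX1-2, 0.47 ± 0.11) and 1 fell (BRX1-1, -0.46 ± 0.13) with lincomycin, while all 14 fell without, and 13 differed between the steps. BRX1-1 lost its call without array 1 at either time (adjusted p up to 0.0646). NUC1, nucleolin, had 3319, 3464, 3478 and 3209 at 4 h and 3386, 3985, 4424 and 4412 at 24 h, and was not called (0.26 ± 0.10), except without array 1 at 24 h (adjusted p = 0.0293). Cytosolic ribosomal proteins showed no such contrast, with 1 of 14 that rose, and none whose steps differed. Glucosinolate synthesis went the other way round: 2 of 19 rose and 3 fell with lincomycin, 13 rose and none fell without, and 14 differed between the steps. MAM3, of methionine chain elongation, rose by 1.104 ± 0.20, and the indole branch gene CYP83B1 fell by 0.54 ± 0.14 with overlapping arrays, a call lost without array 2 at 24 h (adjusted p = 0.0533).

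Clock genes were called for 13 of 19, 6 that rose and 7 that fell. LHY (AT1G01060), a morning factor, gave 689, 741, 720 and 835 at 4 h and 2010, 2635, 2065 and 1919 at 24 h (1.52 ± 0.16), and its partner CCA1 rose by 1.51 ± 0.13. GI (AT1G22770), an afternoon gene, gave 2015, 1790, 1837 and 1794 at 4 h and 674, 473, 691 and 769 at 24 h (-1.53 ± 0.12). ELF4 and PRR3, of evening phase, fell by 1.66 ± 0.15 and 1.49 ± 0.13, and TOC1 by 0.50 ± 0.09. For 11 of these 13 the direction was the same without lincomycin. PRR5 (0.61 ± 0.12 with, -0.69 ± 0.13 without) and CDF1 (-0.71 ± 0.18 with, 0.67 ± 0.19 without) went opposite ways, and the differences between the steps, 1.301 ± 0.18 and -1.38 ± 0.26, were called. RVE8, with signals near the floor, was not called (adjusted p = 0.107) except without array 4 at 24 h (adjusted p = 0.0431).

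**Figure D4:**
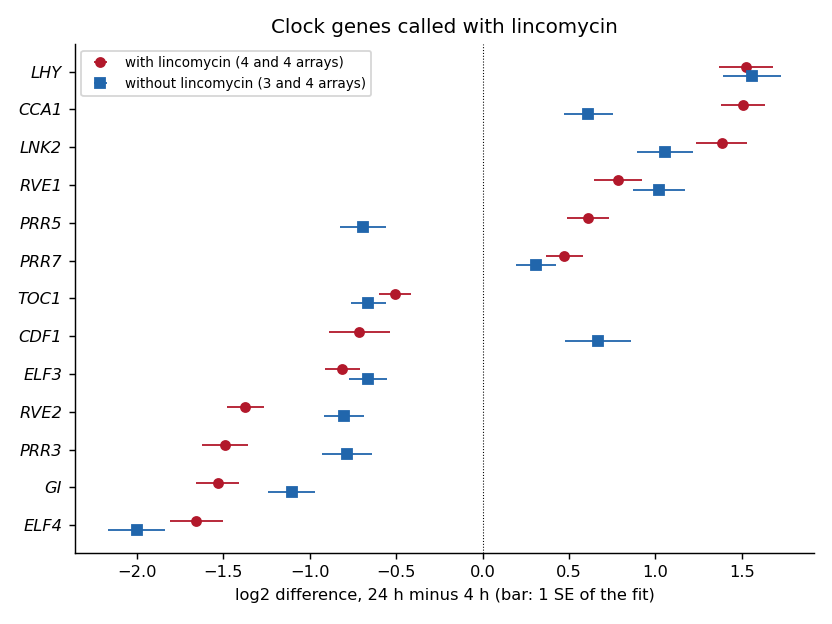
Log2 difference between 24 h and 4 h for the 13 clock genes called with lincomycin, with lincomycin (circles) and without (squares), bars 1 SE of the fit. LHY, CCA1, LNK2 and RVE1 rose and ELF4, GI, PRR3 and RVE2 fell in both, and PRR5 and CDF1 lie on opposite sides of 0.

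Among 26 genes of light signalling 4 rose and 5 fell. The B-box protein BBX29 rose most, by 1.09 ± 0.25. Besides HY5, HYH, RUP1 and BBX22, PIF3, a phytochrome-interacting factor, fell by 0.54 ± 0.15, while its relative PIF5 rose by 0.56 ± 0.11 and the photoreceptor PHYA by 0.29 ± 0.09. The call of PIF3 was lost without array 4 at 4 h or array 1 at 24 h (adjusted p up to 0.0876), and that of PHYA in 7 of the 8 omissions of an array (up to 0.118). PHYB differed by 0.21 ± 0.09 and was not called. The wall enzyme XTH17 of shade and auxin growth fell by 1.90 ± 0.18 with lincomycin and by 1.93 ± 0.19 without. In assimilation the nitrate reductase NIA1 rose by 1.25 ± 0.14 and asparagine synthetase ASN2 by 1.07 ± 0.13, while the nitrate transporter NRT1.1 fell by 0.72 ± 0.12 and the sulfate reductase APR1 by 0.65 ± 0.13, so that 4 of 12 rose and 4 fell. Of 22 starch and sugar genes 4 rose and 7 fell, with sucrose synthase SUS3 (-1.13 ± 0.16) and the beta-amylase BAM3 (-0.91 ± 0.12) lowest.

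UPOX (AT2G21640), a marker of mitochondrial stress, gave 960, 1023, 887 and 748 at 4 h and 2248, 2387, 1881 and 2160 at 24 h (1.27 ± 0.17). Without lincomycin it stayed between 95.2 and 153 at both times. NDA1, an alternative NADH dehydrogenase, rose by 1.03 ± 0.20, and with these 3 of 14 genes of alternative respiration rose and 1 fell. FAD5, the plastid palmitate desaturase, rose by 0.98 ± 0.12, as 3 of 13 genes of fatty acid and galactolipid synthesis did, against 1 that fell. In fatty acid breakdown 1 of 7 fell, PCK1 by 0.30 ± 0.09 (not called without array 1 at 4 h or array 3 at 24 h, adjusted p up to 0.074). In the cytokinin response 1 of 6 fell, ARR16 by 1.09 ± 0.12. Both counts stand beside 9.07% of all probe sets that fell.

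Few genes listed for particular tissues were called. Of 12 root markers IRT1, the iron transporter of the root surface, fell by 1.80 ± 0.22 and the others were not called, and the summed signal of the list was 3012 to 3335 at 4 h and 2449 to 2609 at 24 h. Of 11 genes listed for stomata, not all of them markers of stomatal cells, MYB60 rose by 0.92 ± 0.19 and STOMAGEN fell by 0.43 ± 0.10. Their summed signals were 1579 to 2005 and 1406 to 1583. Of 6 genes of vessels and secondary walls XCP1 and XCP2, proteases of dying vessel cells, fell by 0.77 ± 0.13 and 0.52 ± 0.12, with summed signals of 4142 to 4886 and 2541 to 3539. The sums of the root list and of the vessel list were lower on every 24 h array than on any 4 h array. Members at or under the floor at both times numbered 3, 4 and 0 in these lists and 6 of 11 in the seed storage list. The part of tissue composition in the results was not tested. None of 8 reference genes was called.

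Set against seedlings without lincomycin, which share no arrays with the step, the overlap was partial. Without lincomycin 6620 probe sets (29.1%) changed between 4 and 24 h, 2552 (11.2%) upward and 4068 (17.9%) downward. Of the 1548 probe sets that rose with lincomycin 637 also rose without it, which is 41.1% of the first list and 24.96% of the second, and 283 fell. Of the 2062 that fell with lincomycin 925 also fell without (44.9% and 22.7%), and 223 rose. Across all probe sets the correlation between the steps was 0.15, a description over features that are not independent. It includes 5514 probe sets for which both group means with lincomycin lay at or under the floor. The difference between the steps was called for 4299 probe sets (18.9%), 2402 (10.6%) positive and 1897 (8.34%) negative.

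The 5 largest positive differences came with falls without lincomycin that were smaller, not called or replaced by a rise with it. TCH4 (AT5G57560), a xyloglucan-modifying enzyme induced by touch, gave 2052, 2388, 1893 and 1618 at 4 h and 2426, 1755, 1858 and 1707 at 24 h with lincomycin. Without it the signals went from 7065, 5634, 6373 and 6218 to 178, 363 and 194, and the difference between the steps was 4.72 ± 0.28. PHI-1, a phosphate-induced cell wall protein, differed by 4.68 ± 0.35, with -0.87 ± 0.24 with and -5.55 ± 0.26 without lincomycin. The fall of PHI-1 with lincomycin lost its call without array 2 at 4 h or array 2 or 3 at 24 h (adjusted p up to 0.0645). BCB, DIN1 and BCAT-2, described above, complete the 5 largest.

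The largest negative differences were rises without lincomycin that lincomycin seedlings lacked. CYP83A1 (AT4G13770), of aliphatic glucosinolate synthesis, gave 891, 383, 676 and 696 at 4 h and 1141, 839, 932 and 1480 at 24 h with lincomycin and was not called (0.76 ± 0.35). Without lincomycin it went from 141, 476, 231 and 198 to 4996, 5670 and 5195, a difference between the steps of -3.72 ± 0.51. BCAT4, which starts methionine chain elongation in the same pathway, differed by -3.66 ± 0.46. AT3G05730 differed by -3.94 ± 0.62. AT1G13650 and the methylesterase MES18 were also among the 5, but all their 8 arrays with lincomycin lay under the floor, so no size of the difference is given. Without lincomycin they rose at least 8.28-fold and at least 4.66-fold, to signals of 569, 456 and 688 and of 247, 171 and 221 at 24 h.

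**Figure D5:**
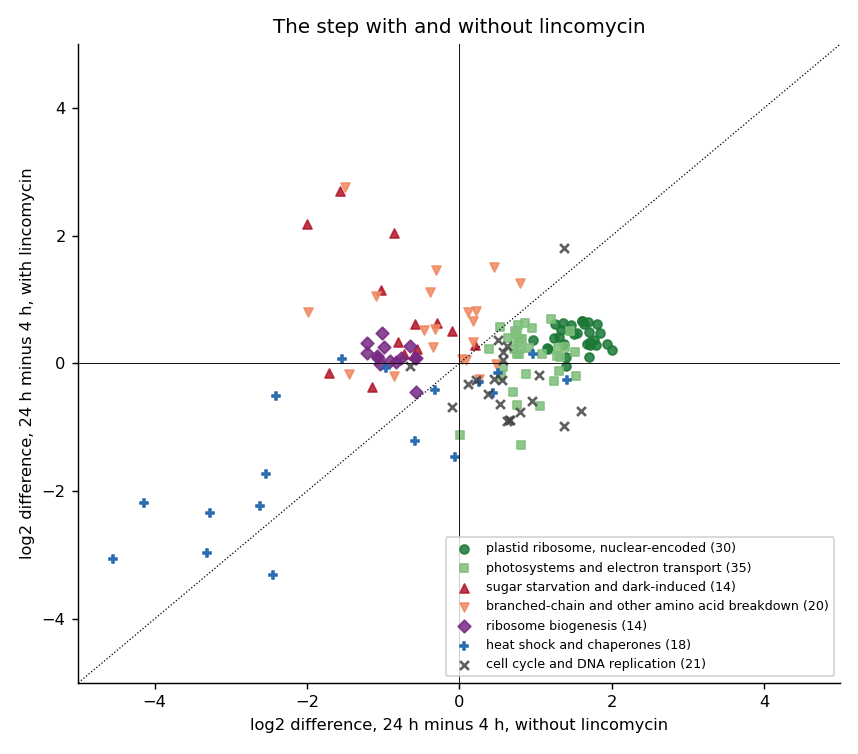
Log2 difference between 24 h and 4 h with lincomycin (vertical) against that without (horizontal) for members of 7 gene lists, each point 1 gene, dotted line equal steps. Heat shock genes lie mostly in the lower left, with 3 of 18 called higher without lincomycin. Starvation and amino acid breakdown genes lie mostly above the line on the left. Plastid ribosome genes lie to the right with a smaller rise on the vertical axis, and ribosome biogenesis genes near 0 on the vertical axis.

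With 4 arrays a group, small changes of variable genes were not detectable, and the group without lincomycin at 24 h held 3 arrays. In the authors' deposited table, the difference between the 24 h and the 4 h ratios with lincomycin had the same sign as here for 1472 of 1473 probe sets that rose and for 1894 of 1936 that fell. That table comes from the same study, so a shared sign among called probe sets is no independent support. Over all 20396 probe sets in that table the correlation with the differences here was 0.62, and 12881 of its differences were above 0.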

How the data were processed

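Signals of 22810 probe sets on 47 Affymetrix ATH1 arrays were deposited by the authors as linear intensity values, each array scaled to the same trimmed mean near 500. MAS5 and GCRMA are the tools named per the submitters' processing notes, and which of them made which table is not given in the sources used here. A table deposited by the authors held gene codes and log2 ratios to 0 h, whose base was read from the values. Its ratios served only for comparison. After 64 control probe sets were left out, 22746 were tested on log2(signal + 1) with limma 3.58.1 (R 4.3.3) and Benjamini-Hochberg adjustment at 0.05. The fit held 23 arrays in 6 groups, without array 4 at 24 h without lincomycin. Early times had a fit of 11 arrays. Genes were assigned from the gene codes in the authors' table and the platform annotation, 1 gene for 21463 probe sets. The 68 probe sets for which these sources conflicted were given no gene. Signals at or under the first quartile of an array (25%) were treated as dim, and folds against them are lower bounds. Members, gene lists and the choice of arrays were made with earlier results of these data known. Named genes were the 10 largest rises and falls without overlap of arrays, the 5 largest differences of the steps in each direction, and list members. The number of arrays limits the precision. Same-numbered arrays at 4 and 24 h with lincomycin had correlations of -0.0622 to 0.0209 between their deviations from the group means, so the numbers do not pair the arrays. Alternatives covered the arrays fitted, scaling, the pseudocount, dim probe sets, an intensity trend and single arrays left out.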

Additional observations from a re-analysis of the deposited data

Results flagged for a closer look

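The step from 4 to 24 h differed between seedlings with and without lincomycin, by the limma test of the difference itself, for every gene whose difference the text prints. The largest differences were picked among called ones by rule, and the others were printed with their calls known. That all were called therefore follows from the choice. Over all probe sets the difference was called for 18.9%. The positive differences on the log2 scale, with minus without lincomycin, were 5.19 for BCB, 4.72 for TCH4, 4.68 for PHI-1, 4.27 for DIN1, 4.26 for BCAT-2, 4.19 for DIN6, 1.301 for PRR5 and 0.96 for AGT1. The negative ones were -3.94 for AT3G05730, -3.72 for CYP83A1, -3.66 for BCAT4, -1.63 for CBP60G and -1.38 for CDF1.

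Among 350 groups of 4 arrays examined, 23 had 1 array far from the other 3, where the gap to its nearest neighbour divided by the range of the group exceeded Dixon's 95% critical value. Chance gives about 1 in 20 such groups. At 4 h with lincomycin the lowest array stood apart, with the ratio after each name, for AT2G46420 (0.85, array 3), BAM3 (0.852, array 4), CIPK20 (0.968, array 1), ELIP2 (0.953, array 1), GLYK (0.884, array 1), HSP17.6A (0.833, array 2), HYH (0.908, array 2), NRT1.1 (0.87, array 2), THI2.2 (0.905, array 3) and TPS11 (0.876, array 1). At 4 h with lincomycin the highest array stood apart, with the ratio after each name, for BBX25 (0.956, array 1), CER3 (0.863, array 2), FBA2 (0.902, array 1) and PRPL15 (0.954, array 1). At 24 h with lincomycin the lowest array stood apart, with the ratio after each name, for AGT1 (0.851, array 4), ATG5 (0.933, array 4), CYCB1;4 (0.845, array 3), GLK2 (0.858, array 3), PIF3 (0.874, array 1), RUP1 (0.968, array 4) and XCP1 (0.895, array 1). At 24 h with lincomycin the highest array stood apart, with the ratio after each name, for ASN2 (0.914, array 4) and MCM7 (0.842, array 2).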

How the results depend on the processing

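The 3610 probe sets called in the step with lincomycin became 1934 in a fit of all 47 arrays and 1404 with array 4 at 24 h without lincomycin kept, which also lowered the 4299 differences between the steps to 2344. With the replicate number as a block, the counts were 587 for the step (8 arrays) and 2524 for the difference (15 arrays). Fitting the 8 arrays alone gave 2834. Of 148 named genes called in the step, 73 lost the call with the block, 53 with array 4 kept, 31 in the fit of 47 arrays, 14 with the 8 arrays alone and 13 in at least 1 omission of an array. The calls of 62 held in all alternatives run for them, among them HSP101, HSP90.1, ELIP1, F3H, DIN1, DIN6, BCAT-2, MCCA, BCB, THI2.2, PSBS, LHCB3, CBP60G, RD29B, MCM7, CYCB1;1, LHY and GI, while those lost with the block included HY5, ELIP2, PRODH1 and PRPL15. Of the 13 differences between the steps given for named genes, those of AGT1 and CDF1 lost the call with array 4 kept, and the block ended none. Leaving out single arrays gave 2981 to 3250 for the step, 5496 to 6157 for the step without lincomycin and 3572 to 4104 for the difference. The share of probe sets called at 1 h that were called in the step, 47.7%, ranged from 40.3% to 45.0% without single arrays, and was 0% of the 4 called at 0.5 h. Among the named genes only SIG5, not called in any of these, turned sign: -0.0226 after quantile scaling, -0.0299 in the authors' deposited table, the latter chosen after seeing the data, and -0.059 to 0.0568 without single arrays (negative without array 2 at 4 h and array 1 at 24 h). The medians of 6 of 41 lists, all near 0 except that of the stomatal list, also changed sign in some alternatives. These were the clock list from 0.06 to as low as -0.08, the stomatal list from -0.30 to as high as 0.09, and the glucosinolate, senescence, seed storage and reference lists. The cause of these changes was not tested, except that fewer arrays and a wider shared spread lower the counts by construction.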
